A study of Mus musculus with 3 samples.

Results

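A stretch of mouse chromosome 1 from 88.05 to 88.4 Mb (GRCm38, also called mm10), which holds the Ugt1a genes, Mroh2a, Hjurp and Trpm8, was described by the peaks of 2 histone variants retained in sperm. The stretch was chosen by its measured values, namely a run of TH2B peaks with few TH2A peaks, so that the number of peaks in it is a description and not a finding. It held 13 of the 1179 TH2B peaks and 1 of the 210 TH2A peaks. The peaks were described against 9 genes: Ugt1a1, Ugt1a2, Ugt1a5, Ugt1a6a, Ugt1a9, Ugt1a10, Mroh2a, Hjurp and Trpm8.

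Native ChIP-seq, in which chromatin is cut with micrococcal nuclease and precipitated without a fixative, had been made on mature caudal sperm of BALB/c-129-E mice aged 8 to 12 weeks. No treatment or genetic change of the animals is given. There were 3 libraries, TH2B and TH2A, each precipitated with a rabbit antibody against that variant, and Input, the mononucleosomal DNA before precipitation. Reactions pooled sperm of several mice, and 2 reactions were pooled for each variant, which leaves 1 library per variant (per the labels, the TH2A library had 34000000 read pairs, and TH2B and Input had 30000000 each). Differences between TH2B and TH2A, and between this stretch and the rest of the genome, therefore carry no replicate check and no p-value. A peak is given by its start, end and width alone, and the depth and the height behind each peak are unknown.

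TH2B and TH2A are variants of histones H2B and H2A made mainly in the male germ line. In late spermiogenesis most histones are replaced by protamines, and the nucleosomes that remain carry a part of these variants into the mature sperm. The Ugt1a genes encode UDP-glucuronosyltransferases, enzymes that couple glucuronic acid to bilirubin, steroids and drugs. Each Ugt1a gene has a first exon and start site of its own, spliced to the same last exons. Mroh2a encodes a protein of the maestro heat-like repeat family. Hjurp encodes the chaperone that loads the centromeric histone CENP-A, and Trpm8 a cation channel opened by cold and menthol.

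The sequences below carry the main observations and are given on the plus strand of GRCm38, with protein-coding bases in capitals unless stated otherwise. The TH2A peak at chr1:88242689-88242964 is shown because it was the only TH2A peak of the stretch and lay almost wholly within a TH2B peak, at exon 21 of Mroh2a. The TH2B peak at chr1:88241481-88241740 enclosed a whole exon of Mroh2a, exon 19. The TH2B peak at chr1:88253231-88253466 was the only Mroh2a peak outside exons, and its capitals mark 9 tandem units of GGTGA. The TH2B peak at chr1:88270096-88270298 reached exon 5 of Hjurp, which is transcribed from the minus strand. The TH2B peak at chr1:88285082-88285310 stands for the 2 peaks with no coding base between the Hjurp start and the coding transcripts of Trpm8.
TH2A peak, Mroh2a exon 21: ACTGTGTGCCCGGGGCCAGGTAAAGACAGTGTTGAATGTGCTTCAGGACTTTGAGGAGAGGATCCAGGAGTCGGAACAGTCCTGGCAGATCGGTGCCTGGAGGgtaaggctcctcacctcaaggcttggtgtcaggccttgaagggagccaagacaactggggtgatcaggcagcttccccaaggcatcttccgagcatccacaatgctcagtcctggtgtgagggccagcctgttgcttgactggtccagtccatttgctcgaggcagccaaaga
TH2B peak, Mroh2a exon 19: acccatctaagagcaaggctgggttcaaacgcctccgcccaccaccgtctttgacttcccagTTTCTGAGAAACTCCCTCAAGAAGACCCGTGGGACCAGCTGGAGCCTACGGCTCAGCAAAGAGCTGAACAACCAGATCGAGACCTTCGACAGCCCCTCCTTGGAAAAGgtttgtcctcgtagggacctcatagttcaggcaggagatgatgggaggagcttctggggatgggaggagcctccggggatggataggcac
TH2B peak, Mroh2a intron 31: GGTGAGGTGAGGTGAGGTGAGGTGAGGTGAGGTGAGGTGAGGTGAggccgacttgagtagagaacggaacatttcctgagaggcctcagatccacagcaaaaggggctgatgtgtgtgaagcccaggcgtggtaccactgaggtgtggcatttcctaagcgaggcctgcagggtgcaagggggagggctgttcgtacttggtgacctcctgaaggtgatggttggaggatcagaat
TH2B peak, Hjurp exon 5: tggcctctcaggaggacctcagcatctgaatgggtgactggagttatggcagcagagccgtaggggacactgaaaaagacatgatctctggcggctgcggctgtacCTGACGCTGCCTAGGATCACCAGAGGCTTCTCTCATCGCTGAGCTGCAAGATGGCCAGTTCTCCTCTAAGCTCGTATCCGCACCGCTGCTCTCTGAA
TH2B peak, Trpm8 intron: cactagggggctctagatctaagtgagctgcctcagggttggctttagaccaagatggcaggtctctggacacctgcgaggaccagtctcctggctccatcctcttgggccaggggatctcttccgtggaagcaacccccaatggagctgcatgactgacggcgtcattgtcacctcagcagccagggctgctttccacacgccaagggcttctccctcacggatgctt

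The TH2B peaks formed a run of 68590 bp, from 88218145 to 88286734, near the middle of the stretch. The run began in the last exon of the Ugt1a genes, passed through Mroh2a and Hjurp and ended in the first intron of the Trpm8 transcript model with the most upstream start. By gene, 1 peak lay in the Ugt1a genes, 9 in Mroh2a, 1 in Hjurp and 2 in Trpm8. The 168145 bp before the run, with the start sites of 9 Ugt1a genes, held no peak of either variant, nor did the 113266 bp after it, with the coding transcripts of Trpm8. Neighbouring TH2B peaks were 414 to 16629 bp apart, with a median of 2814 bp over the 12 gaps, against a median gap of 721213 bp over all TH2B peaks of the nuclear chromosomes. The longest gaps were the 16629 bp between the last Mroh2a peak and the Hjurp peak and the 14783 bp between the Hjurp peak and the Trpm8 peaks. The widest peak had 363 bp and the median width was 236 bp, which is also the median of the whole TH2B list.

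**Figure D1:**
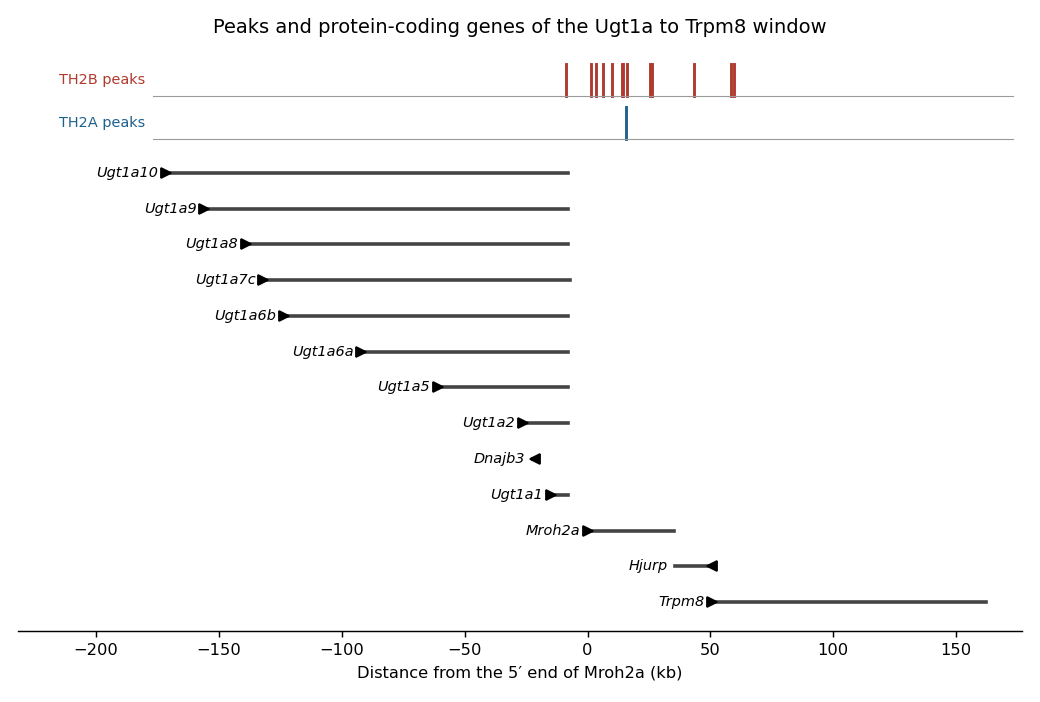
The 13 TH2B peaks (red) and the 1 TH2A peak (blue) of the stretch above its 13 protein-coding genes, by distance in kb from the 5′ end of Mroh2a, with an arrowhead at the 5′ end of each gene that points in the direction of transcription. The TH2B peaks run from the shared 3′ end of the Ugt1a genes to the start of Trpm8, and 9 of them lie in Mroh2a.

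The Ugt1a genes shared a single TH2B peak. It lay at chr1:88218145-88218346 and fell wholly within exon 5, the last exon, which all 9 Ugt1a genes have in common. This exon encodes the C-terminal end of each enzyme, with its membrane anchor, and every base of the peak was annotated as coding. A non-coding antisense transcript, Gm20528, starts 308.5 bp from the centre of the peak and overlaps it on the other strand. The start sites of the enzymes were farther away. From the centre of the peak, the nearest start of Ugt1a1 was at 6.29 kb, of Ugt1a2 at 17.6 kb, of Ugt1a5 at 52.2 kb, of Ugt1a6a at 79.9 kb, of Ugt1a9 at 147 kb and of Ugt1a10 at 163 kb. The count of 9 Ugt1a genes with a peak thus rests on 1 peak at a place they share, and no first exon of any of them was reached. Outside this cluster, none of 13 other glucuronosyltransferase genes of the Ugt2, Ugt3 and Ugt8 families had a peak of either variant in its body or its 5 kb surroundings. Over all 21938 protein-coding genes, 2.89% had a TH2B peak inside the gene, 4.21% had one inside or at most 5 kb away, and 0.15% had a TH2A peak inside or at most 5 kb away.

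Mroh2a held 9 TH2B peaks in 35.3 kb, which is 25.5 peaks per 100 kb (95% Poisson interval 11.7 to 48.4, for counting error only). No other protein-coding gene had as many peaks. By density, some shorter genes with 2 peaks were higher, such as Eno1b (6.50 per 10 kb) and Cbln1 (4.76), against 2.55 in Mroh2a. Of the 633 genes with a TH2B peak, 586 had exactly 1, 34 had 2 and 13 had 3 or more. The next in order by count were Gm20388, a gene model of 4435 kb, with 6 peaks, and C130026I21Rik with 5. All 5 peaks of C130026I21Rik had a near-identical copy elsewhere in the genome. No peak of Gm20388 or of Mroh2a had one, so that the lack of copies was not particular to Mroh2a. Of the 10 Mroh genes of the mouse, Mroh2a was the only one with a TH2B peak inside or at most 5 kb away, and likewise for TH2A. For all protein-coding genes these shares were 4.21% and 0.15%.

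Most Mroh2a peaks reached an exon. The coding transcript used here has 42 exons, and 8 of the 9 peaks touched at least 1 of them. Exons 3, 7, 19 and 31 were covered from end to end. Exons 5, 17 and 21 were covered over 79.8%, 82.4% and 82.1% of their length. Exon 4 was reached over 6 bp by the peak that also covered exon 5, and exon 12 over 5 bp. Exons of all Mroh2a transcripts together made up 24.0% of the bases of the gene and 42.2% of the bases of its peaks.

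**Figure D2:**
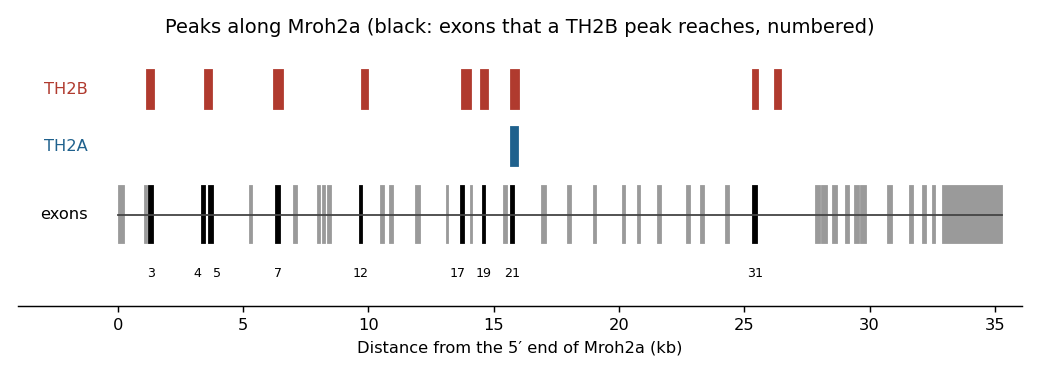
TH2B peaks (red), the TH2A peak (blue) and the 42 exons along Mroh2a, by distance in kb from its 5′ end, with the 9 exons that a TH2B peak reaches in black and numbered. Of the 9 peaks, 7 lie between exons 3 and 21 and 2 at exon 31 and in intron 31, and the last 11 exons hold none.

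Along the gene, 7 of the 9 peaks lay within 14.9 kb, from exon 3 to exon 21. The next 9313 bp, with exons 22 to 30, held no peak. The last pair lay at exon 31 and in intron 31, with 701 bp between them. The remaining 8823 bp of the gene, with the last 11 exons and a final exon of 2385 bp, held none. Exons with a peak were 77 to 182 bp long (median 142, n = 9) and exons without one 41 to 2385 bp (median 120, n = 33). Their GC content was 49.2 to 57.7% (median 54.6%) and 39.6 to 65.9% (median 53.8%), so that the ranges overlapped. The ratio of observed to expected CpG, which compares the number of CG dinucleotides with that expected from the C and G content, was 0.161 to 1.04 (median 0.422) in exons with a peak and 0 to 0.701 (median 0.275) in exons without one. The ratio of 1.04 and the length of 77 bp were those of exon 12, reached over 5 bp only. The lowest GC content of an exon with a peak was that of exon 4, reached over 6 bp. The next highest ratio of an exon with a peak was 0.661, in exon 7.

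Each of the 8 exonic Mroh2a peaks extended past an exon end into an intron. All 8 covered a 5′ splice site, the junction at the 3′ end of an exon where an intron begins, and 5 covered a 3′ splice site. The Hjurp peak also covered a 5′ splice site. Over the whole list, 52 TH2B peaks lay more than 1 kb from any transcription start site (TSS) in an internal exon of a protein-coding gene, of which 51.9% covered a 5′ splice site and 50% a 3′ splice site, the Mroh2a peaks included. Outside the stretch, 19 of 44 such peaks (43.2%, 95% Wilson interval 29.7 to 57.8%) covered a 5′ splice site and 21 of 44 (47.7%, 33.7 to 62.1%) a 3′ splice site. This comparison was made after the positions of the Mroh2a peaks had been seen.

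The peak in intron 31 began with 9 tandem units of GGTGA over 45 bp and lay 741 bp from the nearest exon. It was the only peak of the stretch with 4 or more tandem units of 5 bases. The hexamer formed across its units, GGTGAG or its reverse complement CTCACC, was present in 6 of the 13 TH2B peaks of the stretch. The hexamer was taken from this peak, which is among the 6, and without it 5 of 12 peaks held the hexamer (41.7%, 95% Wilson interval 19.3 to 68.0%). It was present in 21.1% of 1140 TH2B peaks on the nuclear chromosomes, with the same median width, and in 19.6% of 32851 RefSeq promoter windows of 300 bp. A match of these letters is a description and says nothing of a factor bound there.

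The single TH2A peak lay in Mroh2a. It ran from 88242689 to 88242964 (276 bp) and overlapped the TH2B peak at chr1:88242691-88243006 (316 bp) by 274 bp, which was 86.7% of the TH2B peak and 99.3% of the TH2A peak. The starts were 2 bp apart and the ends 42 bp. Both peaks covered the end of exon 21 and the beginning of the next intron, as the sequence above shows. Of the 13 TH2B peaks, 1 thus overlapped a TH2A peak (7.69%, 95% Wilson interval 1.37 to 33.3%), against 5.68% of the whole TH2B list. The other 12 TH2B peaks had none. The shared peak had a GC content of 57.3% in its TH2A form, and none of the 183 TH2A peaks on the nuclear chromosomes had a higher one, with a median of 48.5%.

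Hjurp held 1 TH2B peak of 203 bp at chr1:88270096-88270298, of which 97 bp were coding bases of exon 5. Its centre was 7.44 kb from the 5′ end of the gene and 750 bp from the start of Hjurp-207, a transcript model with a retained intron. Of 9 genes that load CENP-A or form the centromere, Hjurp was the only one with a TH2B peak inside or at most 5 kb away, and none had a TH2A peak. Among all protein-coding genes, 4.21% had a TH2B peak and 0.15% a TH2A peak at this distance. Hjurp itself belongs to the stretch chosen for its peaks. The 5′ ends of Hjurp and of the most upstream Trpm8 model lay 28 bp apart, with transcription running away from both. The Hjurp promoter, taken as the RefSeq window from 250 bp before to 50 bp after the start, had a GC content of 59.7%, 22 CpGs and a CpG ratio of 0.827. No peak of either variant lay there, and the nearest TH2B peak ended 7232 bp away.

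Trpm8 held 2 TH2B peaks, at chr1:88285082-88285310 (229 bp) and chr1:88286532-88286734 (203 bp), 1221 bp apart. Both lay in the first intron of Trpm8-203, a non-coding transcript model that starts next to Hjurp, and neither reached an exon. They were 18087 and 16650 bp upstream of the start of the first coding transcript, so that their place in Trpm8 rests on this model, and in RefSeq they lay in no gene. Among the 8 TRPM channel genes, Trpm5, the channel of taste cells, had a TH2B peak in an exon, at chr7:143069386-143069674. Trpm2 and Trpm4 had one outside the gene within 5 kb of it, and the other 4 had none. No TRPM gene had a TH2A peak inside or at most 5 kb away. The shares of all protein-coding genes at this distance were 4.21% for TH2B and 0.15% for TH2A.

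The place of the TH2B peaks as a group depended on the limits set. Of the 13 peaks, 10 reached an exon (76.9%, 95% Wilson interval 49.7 to 91.8%), against 46.9% of the whole TH2B list. By the peak centre, 6 of 13 lay in an exon (46.2%, 23.2 to 70.9%), against 35.7% of the list, and these intervals overlapped. Exons made up 11.8% of the bases of the stretch and 40.6% of the bases of the peaks. Within 1 kb of a TSS lay 2 peaks (15.4%, 4.33 to 42.2%), against 49.8% of the list, and both were near the start of a non-coding transcript or of one with a retained intron. Within 5 kb lay 10 peaks (76.9%, 49.7 to 91.8%), against 67.2% of the list, so that a lower share near start sites was seen at 1 kb and not at 5 kb. Most Mroh2a peaks among these were nearest to Mroh2a-204 or Mroh2a-203, transcript models that start inside the gene. Only the peaks at exon 3 and at exons 4 and 5 were nearest to the start of Mroh2a-202, the coding transcript used here. In a protein-coding gene and more than 1 kb from any TSS lay 11 peaks (84.6%, 57.8 to 95.7%), against 16.9% of the list. Of these 11, 8 reached an exon (72.7%, 43.4 to 90.2%), against 54.3% of such peaks in the list, and these intervals overlapped. Neighbouring peaks in 1 gene are not independent of each other, so that the intervals are likely too narrow.

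**Figure D3:**
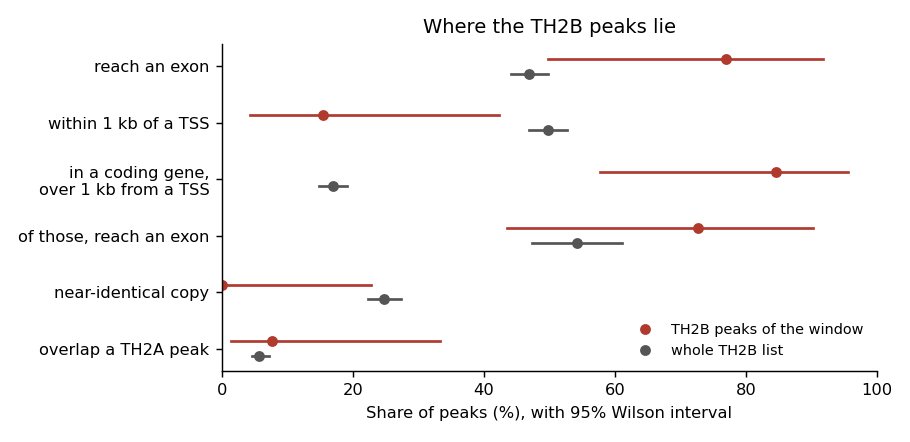
Share of TH2B peaks (percent, points) with 95% Wilson intervals (lines) that reach an exon, lie within 1 kb of a TSS, lie in a protein-coding gene beyond 1 kb, reach an exon among those, have a near-identical copy or overlap a TH2A peak, for the 13 peaks of the stretch (red) and the whole TH2B list (grey). The share near a TSS is 15.4% against 49.8%, and the share within genes beyond 1 kb is 84.6% against 16.9%, both at a limit of 1 kb. At 5 kb, which is not drawn, the shares near a TSS are 76.9% and 67.2%. The grey share with a near-identical copy covers only the 1140 TH2B peaks on the nuclear chromosomes.

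None of the 12 RefSeq promoter windows in the stretch, 1 per gene, was touched by a peak. Among these windows, the nearest to a TH2B peak was that of Mroh2a, 1081 bp from the edge of its first peak. It had a GC content of 47.3% and no CpG. RefSeq also has a Mroh2a start inside the gene, which has no window here. That start lay 777 bp from the centre of the TH2B peak at exon 12. The promoters of Hjurp and of Dnajb3, a gene of the Hsp40 co-chaperone family, were the richest in CpG. Dnajb3 (GC 59.0%, 19 CpGs) lies within the span of the Ugt1a genes and was the only protein-coding gene of the stretch without a peak. For the 9 Ugt1a genes, of which 8 have such a window, promoter GC content ranged from 32.7% at Ugt1a10 to 51.7% at Ugt1a6a.

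The peaks of the stretch had narrower interquartile ranges of GC content and of CpG ratio than the whole TH2B list. GC content was 54.0 to 59.0%, with a median of 56.4% (interquartile range 55.7 to 56.9%, n = 13), against a median of 59.8% (56.2 to 62.2%) over 1140 TH2B peaks. All 13 were below the median of the list. The stretch as a whole had a GC content of 44.4%, Mroh2a 50.6% and its introns 50.1%. Each of the 13 peaks had a higher GC content than the 200 bp on each side of it, by 1.04 to 19.9 percentage points (median 6.92). This was so for 88.9% of the TH2B list, with a median of 5.77 percentage points. The CpG ratio was 0.115 to 0.523, with a median of 0.302 (interquartile range 0.208 to 0.376). Over the list the median was 0.487 (0.256 to 0.686), and 11 of the 13 were below that median. None of the 13 had a ratio over 0.6, a value that 36.0% of the list exceeded. The highest ratios were those of the second Trpm8 peak (0.523) and the Hjurp peak (0.491).

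**Figure D4:**
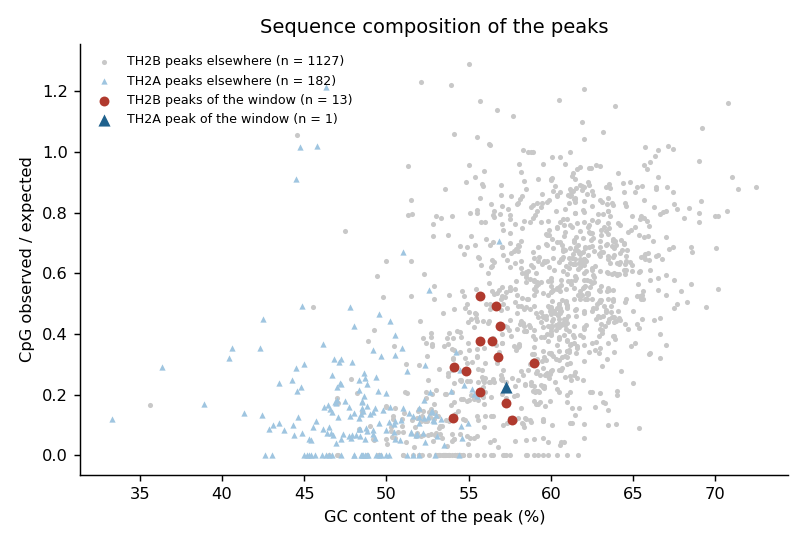
GC content (percent, horizontal) and ratio of observed to expected CpG (vertical) of each peak on the nuclear chromosomes, with the peaks of the stretch in dark colours and all others pale. The 13 TH2B peaks of the stretch lie between 54.0 and 59.0% GC and below a CpG ratio of 0.6, and the TH2A peak of the stretch (57.3% GC) lies to the right of all other TH2A peaks.

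None of the 13 TH2B peaks had a near-identical copy, that is, a match elsewhere with 95% identity or more across 80% or more of its length. Of the 1140 TH2B peaks on the nuclear chromosomes, 24.7% had a copy, and the other peaks of the list were not searched. The 95% Wilson intervals, 0 to 22.8% for the stretch and 22.3 to 27.3% for these 1140 peaks, overlapped only between 22.3 and 22.8%. No peak of the stretch matched another peak of it. The longest match elsewhere was that of the Ugt1a peak, over 157 bp at 74.7% identity, in an exon of Ugt2b34 on chromosome 5, another glucuronosyltransferase gene, where no TH2B peak was listed. The peak in intron 31 of Mroh2a matched 51 bp at 98.0% identity in an intron of Dap on chromosome 15. Repeat-masked bases were absent from 8 of the 13 peaks and made up at most 21.2% of a peak, in the one with the GGTGA units. Of the 1140 TH2B peaks on the nuclear chromosomes, 47.4% had no masked base.

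The flanking 1 Mb on each side held 1 TH2B peak and no TH2A peak. It was a peak of 219 bp at chr1:87067811-87068029, in an exon of the alkaline phosphatase pseudogene Akp-ps1, 0.982 Mb before the stretch. After the stretch the next TH2B peak was 1.44 Mb away, in Agap1. The density of TH2B peaks was 3.71 per 100 kb in the stretch (95% Poisson interval 1.98 to 6.35), 0.1 in the flank before it (0.00253 to 0.557) and 0 in the flank after it (up to 0.369). The ratio of the stretch to both flanks was 74.3 (exact 95% interval 11.2 to 3157), an interval as wide as a single flanking peak allows. Since the stretch was chosen for its run of peaks, this ratio describes the choice. The flanks held 24 protein-coding genes, 20 before and 4 after, with no peak of either variant in any of them or within 5 kb. Such a peak was also rare over all protein-coding genes, at 4.21% for TH2B and 0.15% for TH2A. Of the 13 protein-coding genes in the stretch, 12 had a TH2B peak and 1, Mroh2a, a TH2A peak. The 9 Ugt1a genes among the 12 share 1 peak. The GC content of the flanks was 45.7% and 45.9%, and that of the stretch 44.4%.

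In 7806 windows of 350 kb over the nuclear chromosomes, 10.2% held at least 1 TH2B peak, mostly exactly 1 (645 of 800 windows). The stretch had rank 4, with 3 windows above it and 2 others with as many. The windows on chromosome 8 with 34, 17 and 13 TH2B peaks consisted of peaks that all had near-identical copies, and they held 23, 24 and 13 TH2A peaks. The windows at the beginning of the assembled sequence of chromosomes 4 and 17 held 14 and 13 TH2B peaks, with 9 and 4 TH2A peaks. Of these TH2B peaks, 0 and 1 reached an exon, and 0 and 2 had a near-identical copy. In the stretch, 10 of 13 reached an exon, none had a copy, as in the chromosome 4 window, and 1 TH2A peak was listed.

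**Figure D5:**
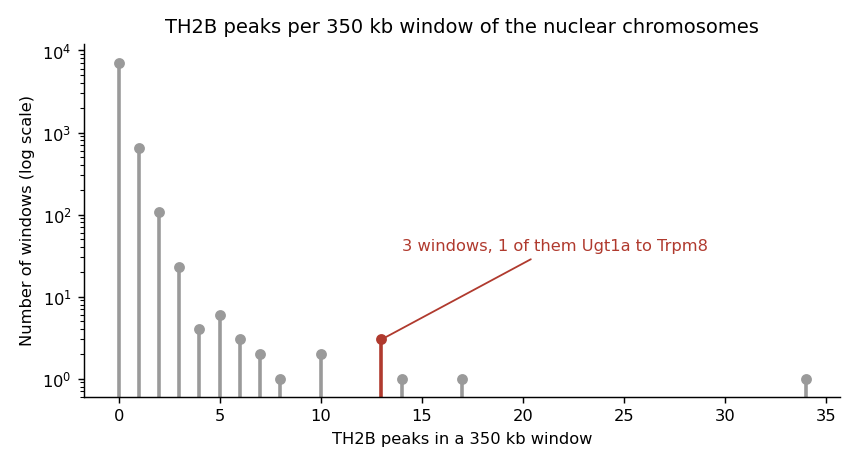
Number of 350 kb windows (vertical, log scale) by the number of TH2B peaks in them (horizontal), with the value of the Ugt1a to Trpm8 stretch in red. Of 7806 windows, 7006 hold no TH2B peak and 3 hold more than the 13 of the stretch.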

How the data were processed

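Native ChIP of TH2B and TH2A and an Input library, 1 each, were made from mouse caudal sperm. Per the labels and the methods of the study, reads were trimmed (Trimmomatic 0.36), aligned to mm10 (BWA), filtered (SAMtools) and passed to MACS2 2.1.3 with the Input as control at a p-value threshold of 0.05. The authors deposited, for TH2B and for TH2A, a file of peak coordinates in bp with both ends included and no score, so no stricter cutoff could be tried. No file of the Input was used. Treatment of duplicates and of reads with several possible positions is not given in the sources used here, and the reference is of another strain than the mice.

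From the positions, the peaks on chromosome 1 from 88050000 to 88400000 were taken with at least 1 bp of overlap and placed on GENCODE mouse M21 and the GRCm38.p6 sequence (RefSeq). The distance to a start site was measured from the middle of a peak to the closest start among all transcripts. Copies were searched with BLAST 2.17.0 in the primary assembly (word size 48, and 11 for the peaks of the stretch). Intervals came from scipy 1.17.1, at 95%, and cover counting error only. Python 3.11.15, numpy 2.4.6, pysam 0.24.0 and matplotlib 3.10.9 were used, and the functions were tested on simulated data.

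The genes of the label, each gene that a peak of the stretch overlaps, and the members of 6 gene lists with a peak were named. The stretch, the members and the lists were chosen with earlier results of these data known. With 1 library per variant, no test was made. The tandem unit, the hexamer, the splice sites, the 200 bp beside each peak, the genes with most peaks, at sequence matches or at the nearest peaks outside, and the windows compared were chosen after values were seen. The sequence of 1 further peak is not reported here.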

Additional observations from a re-analysis of the deposited data

How the results depend on the processing

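Of 25 alternatives over 10 results, 16 left the value within 1.5 times a count, within the interval of the density ratio or within 1 SD of GC content, and 9 moved it. With only peaks at least as wide as the median of their list, 7 TH2B peaks were left in the stretch, and the TH2A peak stayed. Merging peaks under 1000 bp apart gave 10 TH2B peaks, and the rank stayed at 4, as it did with windows shifted so that their edges fell in the middle of the original ones. The flanks held 0 TH2B peaks at 0.5 Mb on each side, where no density ratio can be given, and 3 at 2 Mb, with a ratio of 49.5. Within 1 kb of a TSS lay 1 peak with protein-coding genes only, the Hjurp peak, and 10 peaks lay within 5 kb. With RefSeq gene models (an alternative added after seeing the data) 1 peak lay within 1 kb, but it was another one. It was the Mroh2a peak at exon 12, at 777 bp. The 2 peaks of the main count, in the Ugt1a genes and Hjurp, were 6286 and 7382 bp from a RefSeq start. By the peak centre, 6 peaks lay in an exon, since several peaks reach an exon only with an end. With peaks up to 1000 bp apart counted as shared, 2 TH2B peaks were shared with TH2A. Widening the peaks by 200 bp on each side lowered the median GC content to 52.0%. No paired analysis was possible because each variant has 1 library.

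The peak lists hold no depth or height, so that weak and strong peaks cannot be told apart and the absence of a listed peak does not show that a variant is absent. One pooled library per variant leaves the spread between mice and between reactions unmeasured. TH2A had 34000000 read pairs and TH2B 30000000, and differences between the antibodies cannot be told apart from differences between the variants.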
